A study of Mus musculus with 20 samples.

Results

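The change in ribosome-associated mRNA of mouse hippocampal granule cells between postnatal day 21 (P21) and postnatal day 28 (P28) was measured from 6 of the 20 libraries of a developmental series, 3 at each age. They were chosen by age, and all 6 belong to batch 20211029, so the comparison lies within 1 batch. Every animal carried Rbp4-Cre together with the RiboTag allele, the P21 reference group included, and no library without the tag and none of unselected hippocampal RNA was used here. In RiboTag mice Cre recombination puts an HA epitope on the ribosomal protein RPL22, and ribosomes of recombined cells are then pulled from a tissue lysate with an anti-HA antibody. The cells sampled are therefore those in which the Rbp4 promoter drove Cre at any time. The labels call them granule cells and the tissue hippocampus, and give neither sex nor the animal behind each library. The p-values therefore measure the spread between these libraries, which may be technical.

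Granule cells are the principal excitatory neurons of the dentate gyrus. They receive input from the entorhinal cortex on spiny dendrites and send zinc-rich mossy fibre axons to CA3 pyramidal cells and to mossy cells. Most are born around and after birth, and their dendrites, spines and mossy fibre terminals mature over the first postnatal weeks.

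Defining genes of granule cells were present at both ages. Prox1, the transcription factor that sets granule cell identity, was at 582 to 664 CPM (counts scaled to an equal library total) at P21 and at 512 to 544 CPM at P28. Calb1, which encodes the calcium buffer calbindin of mature granule cells, averaged 647 ± 57.7 CPM at P21 and 616 ± 33.7 CPM at P28 (SD, n = 3, as for all errors of a mean below; adjusted p = 0.638, edgeR quasi-likelihood test). Rpl22 itself, which carries the tag, stood at 84.6 ± 2.29 and 89.1 ± 1.45 CPM (adjusted p = 0.463), and Rbp4 at 9.20 ± 0.468 and 9.05 ± 0.319 CPM (adjusted p = 0.938).

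The libraries held 17.1 to 19.7 M (mega) counts at P21 and 17.5 to 19.1 M at P28, and a count of 3 corresponded to 0.160 to 0.183 CPM, a floor that covers counting error only. In a principal component analysis P28_2 lay at 32.5 on the first component (36.0% of the variance), whereas the other 5 libraries lay between -15.8 and 0.85. Reads of 4 Y-linked genes numbered 1129 in P21_2 and 1061 in P21_3, against 0 to 26 in each of the other 4 libraries, so Y-linked reads and age were not balanced. Reads of the X-linked gene Xist numbered 3127 in P21_2 and 2345 in P21_3, and 2097 to 5410 in the other 4 libraries. The sex behind each library was not tested. Reads of Sptan1, the alpha spectrin of the membrane skeleton, alone made up 15392, 16655 and 21270.4 CPM in P21_1 to P21_3 and 12035, 12356 and 18430 CPM in P28_1 to P28_3. These 3 features, the place of P28_2, the Y-linked reads and the Sptan1 level, moved with age or with single libraries. The results are given below also without P28_2, without the P21 libraries with Y-linked reads, and with the spectrin level as a covariate. The spectrin level is the mean log2 CPM of Sptan1 and Sptbn1, another spectrin gene. Sptbn1 was at 8211, 8943 and 10601 CPM in P21_1 to P21_3. It was at 5271, 5619 and 7631 CPM in P28_1 to P28_3, without overlap. The covariate therefore moved with age, and a call missed with it cannot tell age from spectrin level.

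Most of the changes past the threshold were small. Of 13544 autosomal genes tested, 277 (2.05%) passed an adjusted p of 0.05, and 101 of them (0.746% of the genes tested) were higher and 176 (1.3%) lower at P28. An unadjusted p under 0.05 was reached by 2361 of the 13544 genes, the background for such counts in the gene lists below. Over all genes 6891 estimates were positive and 6653 negative. The median change of the genes that rose was 0.27 on the log2 scale and that of the genes that fell was -0.31. A change of 1.5-fold or more was seen in 36 of the 277 genes, 3 that rose and 33 that fell, and the 11 genes that changed 2-fold or more all fell. The 3 P21 and 3 P28 values of 3146 genes (23.2%) did not overlap. Scaling by total counts instead of trimmed-mean factors gave 333 genes, 247 of the 277 among them, of which 55.6% were higher at P28, against 36.5% with trimmed-mean factors, and moved the median change of all genes from 0.00 to 0.03.

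The number of calls depended on single libraries. It was 44 without P28_1, 118 without P21_2, 126 without P28_2, 150 without P28_3, 162 without P21_1 and 220 without P21_3. It was 170 without both P21 libraries with Y-linked reads, where P21 is a single library whose spread is assumed to be that of the P28 group, and 11 with the spectrin level as a covariate. All 277 genes kept their direction in each of these fits. A core of 33 genes, 7 higher and 26 lower, passed the threshold with all 6 libraries and in each of the 6 fits that left out 1 library. With the spectrin covariate 8 of the 277 genes still passed: Stra6 and Cck were higher, and Pdzd2, Slc4a4, Cacng5, Sphkap, Nebl and Btbd3 were lower.

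**Figure D1:**
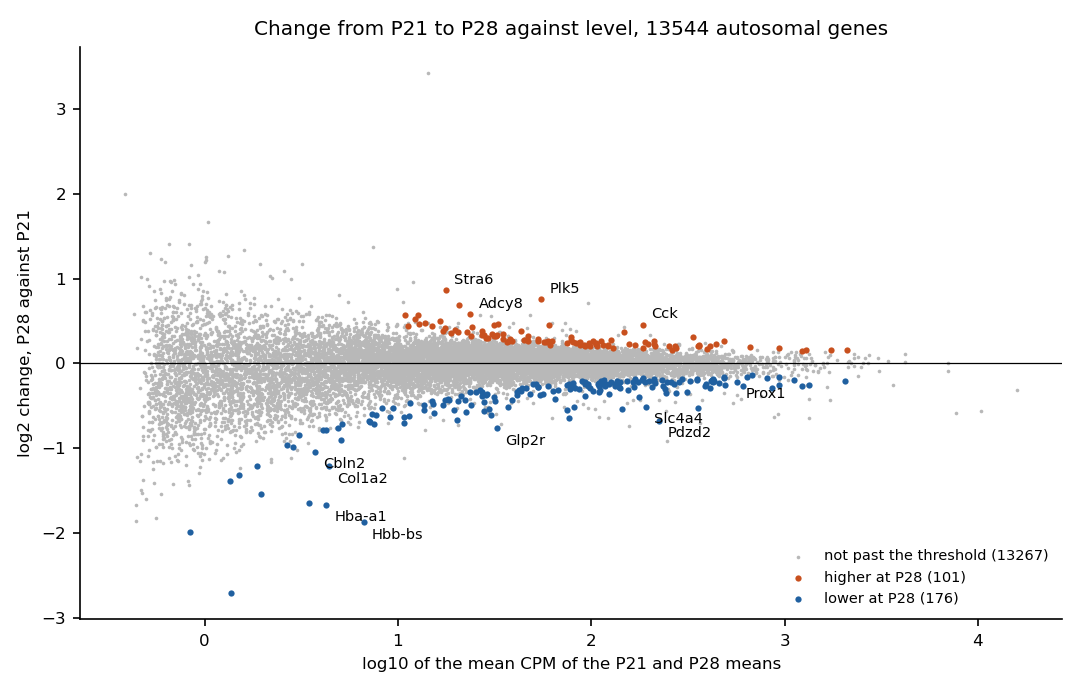
Fitted log2 change from P21 to P28 (y axis) against the log10 of the mean CPM (x axis) for 13544 autosomal genes, with genes past an adjusted p of 0.05 in orange (101 higher at P28) and blue (176 lower). The genes that rose stay within 1 log2 unit, whereas the genes that fell most, hemoglobins among them, lie at low CPM.

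The 14 genes with the highest fold change were led by Stra6, Plk5, Gsta4 and Adcy8. Stra6, the cell-surface receptor that takes up retinol from retinol-binding protein, rose most (chromosome 9, 58063788 to 58153996, plus strand, mm10). It was at 11.5, 12.4 and 13.7 CPM in P21_1 to P21_3 and at 23.6, 20.9 and 23.9 CPM in P28_1 to P28_3 (log2 change of 0.86 with an SE of 0.0998, adjusted p = 0.000463, edgeR). All 3 P28 libraries lay above all 3 P21 libraries, as they did for each of these 14 genes, which the choice required. Plk5, a polo-like kinase of non-dividing neurons, was at 37.1, 46.5 and 39.1 CPM at P21 and at 72.5, 72.9 and 61.8 CPM at P28 (log2 change of 0.76 with an SE of 0.0900, adjusted p = 0.00336). P28_3 was the lowest of the P28 libraries for Plk5 and was still above P21_2, the highest at P21.

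Adcy8, Cck and Chrm4 were also among the 14. Adcy8, a calcium-stimulated adenylyl cyclase, was at 17.2, 17.6 and 22.1 CPM at P21 and at 28.7, 28.4 and 27.9 CPM at P28 (log2 change of 0.58 with an SE of 0.0934, adjusted p = 0.00668, edgeR). Adcy1, the other calcium-stimulated cyclase of these neurons, went the other way, from 2202 ± 98.6 to 1905 ± 81.7 CPM (log2 change -0.21, adjusted p = 0.0144), but missed the threshold without P21_1 (adjusted p = 0.0559) and without P28_1 (0.0627). Adcy8 and Adcy1 were the members that passed among 49 tested genes of cyclic nucleotide and G protein signalling (4.08%, beside 2.05% of all genes). Cck encodes the peptide cholecystokinin, and it was at 151, 147 and 171 CPM at P21 and at 217, 205 and 220.4 CPM at P28 (log2 change of 0.46 with an SE of 0.0553, adjusted p = 0.00067). The 3 values of an age lay close together, and the gap between the ages was wider than the spread within them. Among 25 tested genes of neuropeptides, granins and their processing enzymes Cck was the 1 that passed (4%). Chrm4, the M4 muscarinic receptor, which couples to inhibitory G proteins, rose from 10.0 ± 1.06 to 14.4 ± 1.43 CPM (log2 change 0.52, adjusted p = 0.0331), and Oprl1, the nociceptin receptor, from 28.5 ± 2.14 to 35.7 ± 2.60 CPM (log2 change 0.32, adjusted p = 0.043). These were 2 of 49 tested monoamine, acetylcholine and other G protein-coupled receptor genes (4.08%, beside 2.05% of all genes), and no other member passed. Chrm4 missed the threshold in 5 of the 6 fits that left out 1 library, all but the one without P21_3 (adjusted p 0.0502 to 0.154), and Oprl1 in all 6 (0.0564 to 0.16).

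The promoters of Plk5, Cck and Glp2r, a gene that fell and is described below, are shown. These genes passed the threshold in every fit that left out 1 library and have a single start in the RefSeq table. They were picked by hand after their values were seen, and other genes may meet the same conditions. Each run gives the 250 bases before the start on the gene's strand (RefSeq, GRCm38.p6), at chr10:80356209-80356458 on the plus strand, chr9:121495695-121495944 on the minus strand and chr11:67771154-67771403 on the minus strand. Capitals mark the letters of an E-box.
Plk5: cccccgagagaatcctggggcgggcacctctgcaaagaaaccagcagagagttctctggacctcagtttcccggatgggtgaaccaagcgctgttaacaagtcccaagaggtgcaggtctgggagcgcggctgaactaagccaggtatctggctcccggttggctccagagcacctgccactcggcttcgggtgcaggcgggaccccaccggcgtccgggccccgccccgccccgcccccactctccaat
Cck: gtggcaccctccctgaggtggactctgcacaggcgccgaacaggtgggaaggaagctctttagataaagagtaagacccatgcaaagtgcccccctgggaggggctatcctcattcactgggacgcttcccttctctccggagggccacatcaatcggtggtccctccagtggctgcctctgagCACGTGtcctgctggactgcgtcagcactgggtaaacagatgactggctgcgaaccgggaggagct
Glp2r: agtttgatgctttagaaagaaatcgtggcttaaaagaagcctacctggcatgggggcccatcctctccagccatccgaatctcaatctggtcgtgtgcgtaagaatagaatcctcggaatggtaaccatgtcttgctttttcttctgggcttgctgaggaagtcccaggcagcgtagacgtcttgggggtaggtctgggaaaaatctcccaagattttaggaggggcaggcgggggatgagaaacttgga

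Short motifs were searched on both strands of windows from 250 bases before to 50 after the start: CRE (TGACGTCA), AP-1 (TGANTCA), E-box (CACGTG), Egr (GCGTGGGCG), D-box (TTATGNAA) and the glucocorticoid response element, none of which overlapped another in these 3 genes. The E-box of Cck, 66 bases before the start, was the only match among the 12 promoters found for 8 of the 14 genes that rose most, and 9.59% of the 13519 promoters of all tested genes held an E-box. Among the 11 promoters of the 14 genes that fell most there was 1 match, an AP-1 motif of Hbb-bs. Over all called genes an E-box was in 5.1% of 98 promoters of genes that rose and in 8.63% of 197 promoters of genes that fell.

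St3gal1, Csgalnact1 and Galk2, which act on sugars, were also among the 14. St3gal1, which adds sialic acid to O-linked chains, was at 53.1, 47.1 and 52.5 CPM at P21 and at 69.8, 69.6 and 69.9 CPM at P28 (log2 change of 0.46 with an SE of 0.0585, adjusted p = 0.000821, edgeR). The P28 values were nearly equal, and the lowest was well above the highest at P21. Csgalnact1, which starts chondroitin sulfate chains, rose from 10.2 ± 0.653 to 15.2 ± 1.82 CPM (log2 change 0.57, adjusted p = 0.0206), and Galk2, an N-acetylgalactosamine kinase, from 13.8 ± 0.907 to 19.4 ± 2.88 CPM (log2 change 0.50, adjusted p = 0.033). Csgalnact1 missed the threshold without P21_1, P21_2 or P28_2 (adjusted p 0.0562 to 0.0858), and Galk2 missed it without P21_2, P21_3, P28_2 or P28_3 (0.0831 to 0.142).

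The remaining 6 were Gsta4, a glutathione transferase that detoxifies lipid peroxidation products (15.8 ± 3.72 to 25.6 ± 2.11 CPM), Ntn5, a netrin family member (8.72 ± 0.719 to 12.9 ± 1.89 CPM), Ramp2, a partner of the calcitonin receptor-like receptor (11.5 ± 0.641 to 16.1 ± 1.11 CPM), Cbx7, a Polycomb protein (27.6 ± 0.998 to 38.3 ± 4.45 CPM), Nfkbia, the inhibitor of NF-kappa-B (10.8 ± 0.728 to 14.9 ± 1.52 CPM), and Jade2, a PHD-finger protein (26.7 ± 3.46 to 36.5 ± 1.66 CPM). Their adjusted p values lay between 0.0108 and 0.049, and each missed the threshold in at least 1 fit that left out a library. Cbx7 lost it only without P28_1 (adjusted p = 0.054), and Nfkbia in all 6 (0.0554 to 0.19). Exons of Ramp2 and Ntn5 share 33.4% and 23.4% of their bases with a neighbouring gene (Vps25 and Sec1), and the strand setting of the counting is not given in the sources used here. The core of 33 genes held 2 more that rose, named after their values were seen. Pea15a, a death-effector-domain phosphoprotein, went from 406 ± 13.0 to 478 ± 21.4 CPM (log2 change 0.23), and Smad1, a transducer of bone morphogenetic protein signals, from 20.7 ± 0.448 to 27.9 ± 1.48 CPM (log2 change 0.43; adjusted p = 0.0115 for both).

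**Figure D2:**
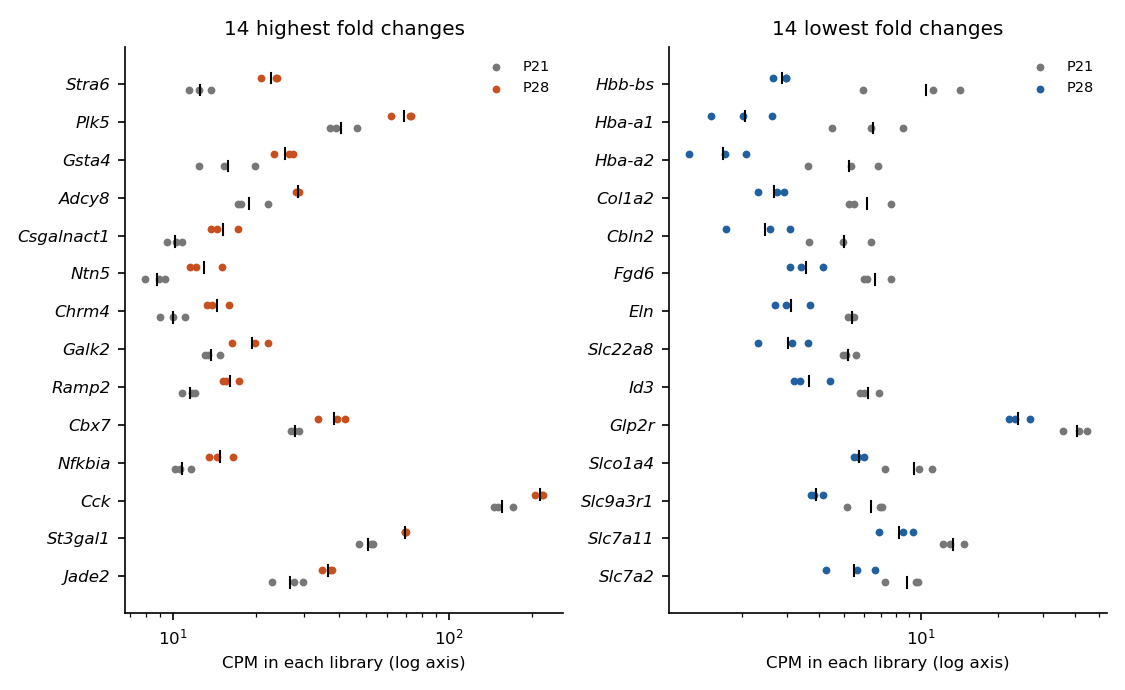
CPM of the 14 genes with the highest (left) and the 14 with the lowest (right) fold change in each of the 3 P21 (grey) and 3 P28 (coloured) libraries on a log axis, with the mean of an age as a vertical line. No gene shows an overlap between the ages, which the choice of genes required, and Glp2r is the 1 gene on the right above 20 CPM at both ages.

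Of the 14 genes with the lowest fold change, 5 are on the marker lists of blood or of endothelial and mural cells: Hbb-bs, Hba-a1, Hba-a2, Col1a2 and Slco1a4. Hbb-bs, Hba-a1 and Hba-a2, which encode hemoglobin chains of red blood cells, fell by 1.86, 1.66 and 1.64 on the log2 scale. Hbb-bs was at 14.2, 5.96 and 11.1 CPM in P21_1 to P21_3 and at 2.97, 2.64 and 2.96 CPM in P28_1 to P28_3 (adjusted p = 0.0334, edgeR). The 3 P28 libraries were low and alike, while P21_2 had less than the other P21 libraries. Hemoglobin genes have near-identical copies, so the split of reads between them is uncertain. Col1a2, a chain of type I collagen, fell from 6.13 ± 1.34 to 2.65 ± 0.304 CPM (log2 change -1.21, adjusted p = 0.00669), and Eln, which encodes elastin, from 5.36 ± 0.150 to 3.11 ± 0.505 CPM (log2 change -0.79, adjusted p = 0.0338). The transporters Slco1a4 of brain endothelium (log2 change -0.72) and Slc22a8 of endothelium and choroid plexus (-0.78), the cystine and glutamate exchanger Slc7a11 (-0.70) and the cationic amino acid transporter Slc7a2 (-0.69) were also lower, as were Slc9a3r1, a scaffold of membrane transporters (-0.71), Fgd6, an exchange factor for Cdc42 (-0.90), Id3, an inhibitor of basic helix-loop-helix factors (-0.76), and Cbln2, a secreted ligand of neurexins (-1.04), with adjusted p between 0.0137 and 0.0498. All of these were at or below 13.3 CPM on average at P21.

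Glp2r, the receptor of glucagon-like peptide 2, was the only one of the 14 at a higher level (chromosome 11, 67661502 to 67771153, minus strand). It was at 44.8, 41.6 and 36.0 CPM at P21 and at 22.2, 23.4 and 26.8 CPM at P28 (log2 change of -0.76 with an SE of 0.0903, adjusted p = 0.00067, edgeR). Even the highest P28 library, P28_3, lay well below the lowest P21 library. Of these 28 genes with the highest and lowest fold changes, 8 passed the threshold in all 6 fits that left out 1 library. They were Stra6, Plk5, Adcy8, Cck, St3gal1, Hba-a2, Col1a2 and Glp2r. The other 20 missed it in at least 1, Cbx7, Hba-a1 and Slc7a11 only without P28_1 (adjusted p = 0.054 for each). Slc22a8, Id3 and Nfkbia passed in 0 of the 6 fits. Eln, Slco1a4, Slc9a3r1, Slc7a2, Ramp2 and Chrm4 passed in 1, and Cbln2, Hbb-bs, Gsta4, Ntn5 and Galk2 in 2. Without the P21 libraries with Y-linked reads 11 of the 28 passed, Glp2r (log2 change -0.89), Stra6 (0.99), Plk5 (0.90), Adcy8 (0.72), Cck (0.51) and St3gal1 (0.39) among them, and Col1a2 missed (adjusted p = 0.11). With the spectrin covariate Stra6 (adjusted p = 0.0105) and Cck (0.00718) passed and Glp2r missed (0.0748).

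The smallest p-value of the comparison belonged to a gene with a moderate change, named after its values were seen. Pdzd2, a protein with several PDZ domains, was at 283, 272 and 275 CPM at P21 and at 169.6, 173 and 178 CPM at P28 (log2 change of -0.67 with an SE of 0.0411, adjusted p = 1.79e-07, edgeR; chromosome 15, 12359711 to 12739924, minus strand). Its libraries of an age agreed within a few percent, and the ages stood far apart. Others of the core of 33 that fell at levels above 100 CPM, chosen the same way, were Sphkap, an anchor of protein kinase A (420.0 ± 22.6 to 293 ± 18.3 CPM, log2 change -0.52), Nebl, an actin-binding nebulin relative (201 ± 13.8 to 154 ± 0.231 CPM, -0.39), and Btbd3, which orients dendrites (951 ± 14.1 to 779 ± 15.2 CPM, -0.29). Pdzd2, Sphkap, Nebl and Btbd3 are also among the 8 genes that passed with the spectrin covariate (adjusted p = 0.000185, 0.0263, 0.0309 and 0.0309).

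Genes that define mature granule cells changed in both directions. Of 22 tested, 4 rose and 4 fell (36.4% called, beside 2.05% of all genes), with a median change of -0.05 beside 0.00 over all genes tested. The list was chosen with earlier results of these data known, so its share of calls is not independent of them. Besides Plk5, the genes that rose were C1ql2, a mossy fibre protein that clusters kainate receptors (444 ± 11.5 to 534 ± 31.7 CPM, log2 change 0.26, adjusted p = 0.00686, edgeR), Slc30a3, the vesicular zinc transporter (182 ± 10.7 to 213 ± 9.29 CPM, 0.23, adjusted p = 0.0291), and Stxbp6, a SNARE-binding protein (0.17, adjusted p = 0.0439). Those that fell were Prox1, the cytoskeletal regulator Dock10 (-0.28, adjusted p = 0.00736), the transcription factor Rfx3 (-0.27, adjusted p = 0.0139) and Dsp, which encodes desmoplakin (-0.35, adjusted p = 0.0385).

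Prox1 was at 664, 589 and 582 CPM in P21_1 to P21_3 and at 525, 512 and 544 CPM in P28_1 to P28_3 (log2 change of -0.21 with an SE of 0.0479, adjusted p = 0.0325, edgeR). P21_1 stood above the other P21 libraries, and P28_3 was close to P21_3 without overlap. The call on Prox1 was kept only without P21_3 and lost without each of the other 5 libraries (adjusted p 0.0548 to 0.122). It passed without the P21 libraries with Y-linked reads (log2 change -0.33, adjusted p = 0.00309). C1ql2, Dock10, Rfx3 and Dclk1, a gene of immature neurons, lost their calls only without P28_1 (adjusted p 0.0538 to 0.0765), and Slc30a3 without each library but P21_2 (0.061 to 0.106). The granule cell list had 1 call without P28_1, 4 each without P28_2 and without P28_3, 5 without P21_2, 5 without the P21 libraries with Y-linked reads and none with the spectrin covariate. Among 38 tested genes of immature neurons (5.26% called, beside 2.05% of all genes), Dpysl5 (-0.37, adjusted p = 0.00445) and Dclk1 (-0.20, adjusted p = 0.00686), which regulate microtubules of growing neurites, fell and none rose. Dcx, the standard marker of immature granule cells, is X-linked and was outside the autosomal test.

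On the postsynaptic side, 6 of 28 tested scaffold genes of the excitatory synapse fell and 2 rose, beside 1.3% and 0.746% of all genes tested, and of 16 calcium-dependent kinases and phosphatases 1 fell, Prkca. Dlg2, the PSD-93 scaffold that anchors glutamate receptors, was at 457, 450.3 and 455 CPM at P21 and at 364, 375 and 375 CPM at P28 (log2 change of -0.29 with an SE of 0.0363, adjusted p = 0.00067, edgeR). Its partner Dlgap1 was at 1009, 1009 and 1033 CPM at P21 and at 831, 863 and 868 CPM at P28 (log2 change of -0.25 with an SE of 0.0345, adjusted p = 0.00154). Replicates of both genes were tight, and the ages were clearly apart. Kalrn, an exchange factor that enlarges spines, fell from 1346 ± 41.3 to 1118 ± 67.5 CPM (log2 change -0.27, adjusted p = 0.00595), and Shank1, a deeper scaffold layer, from 426 ± 11.5 to 362 ± 17.6 CPM (-0.24, adjusted p = 0.0114). Anks1b (-0.18) was another that fell, while Lzts3 (0.21) and Lzts1 (0.23), which bind other scaffolds, rose. Dlg2, Dlgap1 and Kalrn stayed past the threshold in each fit that left out 1 library and without the P21 libraries with Y-linked reads, whereas Shank1 missed it without P28_1 (adjusted p = 0.0754). With the spectrin covariate Dlg2 (adjusted p = 0.0794), Dlgap1 (0.153) and Kalrn (0.312) missed it. The postsynaptic density list, which joins the scaffolds and the kinases and phosphatases, had 9 calls of 44, 3 without P28_1, 6 without P28_2, 4 without the P21 libraries with Y-linked reads and none with the spectrin covariate. The 44 postsynaptic density genes had a median exonic length of 8630 bases beside 4549.5 over all genes tested, a property that moved with the change, as described below.

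Auxiliary proteins of AMPA receptors moved in both directions. No tested subunit of AMPA (3), NMDA (6), kainate (7) or metabotropic (7) glutamate receptors passed the edgeR test, and 0, 2, 1 and 0 of them had an unadjusted p under 0.05. Of 12 auxiliary AMPA receptor genes 3 fell and 1 rose (33.3% called, beside 2.05% of all genes). Cacng5, a transmembrane AMPA receptor regulatory protein, was at 49.1, 41.7 and 40.0 CPM at P21 and at 31.4, 30.9 and 29.0 CPM at P28 (log2 change of -0.52 with an SE of 0.0792, adjusted p = 0.00446, edgeR). P21_1 was the highest library, and no P28 library reached a P21 value. Shisa7 fell from 183 ± 10.7 to 151 ± 5.54 CPM (-0.28, adjusted p = 0.0115) and Shisa6 from 129 ± 8.10 to 109 ± 3.51 CPM (-0.24, adjusted p = 0.0269), while Gsg1l, which slows recovery of AMPA receptors, rose from 41.6 ± 1.13 to 52.2 ± 1.88 CPM (0.33, adjusted p = 0.0117). Cacng5 also passed with the spectrin covariate (log2 change -0.67, adjusted p = 0.0228) and without the P21 libraries with Y-linked reads (-0.69, adjusted p = 0.000375). Shisa7 passed in each fit that left out 1 library but not without the P21 libraries with Y-linked reads (-0.21, adjusted p = 0.137) or with the spectrin covariate (0.421), Gsg1l missed without P28_1 (adjusted p = 0.0719) and Shisa6 without P21_1, P28_1, P28_2 or P28_3 (0.0574 to 0.0919).

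Grin2b and Grin2a, the NMDA receptor genes often used to follow synapse maturation, did not pass. Grin2b, the juvenile subunit, averaged 860.2 ± 44.5 CPM at P21 and 767 ± 37.4 CPM at P28 (log2 change -0.17, adjusted p = 0.0654, edgeR), and Grin2a, the mature subunit, averaged 465 ± 2.71 and 434 ± 13.2 CPM (-0.10, adjusted p = 0.176). Grin2b was past the threshold in 3 of 11 other settings and in none of the 6 fits that left out 1 library. Gria1, the main AMPA subunit of these cells, was at 1239 to 1269 CPM at P21 and at 1193 to 1205 CPM at P28 (adjusted p = 0.324). On the inhibitory side 2 of 30 genes of GABA receptors and chloride transport passed (6.67%, beside 2.05% of all genes). Both fell, Gabrb1 (-0.21, adjusted p = 0.0255) and Gabbr2 (-0.16, adjusted p = 0.044). Gabrb1 lost its call without P21_3, P28_1 or P28_3 (adjusted p 0.0743 to 0.0975), and Gabbr2 without each library but P21_3 (0.0548 to 0.178). Gabrd (adjusted p = 0.234), the chloride exporter Slc12a5 (0.887) and the importer Slc12a2 (0.188) did not pass. None of 62 potassium channel genes passed in edgeR (13 at an unadjusted p under 0.05, 2 past the threshold in DESeq2, 0 in limma-voom). A negative estimate was found in 43 of the 62, beside 6653 of 13544 genes tested. An unadjusted p under 0.05 was reached by 2361 of those 13544. None of 35 sodium, calcium and HCN channel genes passed either (10 at an unadjusted p under 0.05, 1 in DESeq2, 0 in limma-voom).

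Of 63 presynaptic genes tested 3 passed (4.76%, beside 2.05% of all genes), 6 with DESeq2, 2 without P21_1 or P28_2, 1 without P28_3 and none without P28_1 or with the spectrin covariate. Snap25, a core SNARE protein of vesicle fusion, rose from 1996 ± 20.7 to 2236 ± 42.8 CPM (log2 change 0.16, adjusted p = 0.0153, edgeR) and Slc30a3 rose as above, while Erc2, an active zone scaffold, fell from 461 ± 7.60 to 397 ± 12.1 CPM (-0.21, adjusted p = 0.0108). Among 80 synaptic adhesion genes (3.75% called) C1ql2 and Cntnap5a (0.26, adjusted p = 0.0449) rose and Cbln2 fell. Among 62 axon guidance genes (4.84% called) Ntn5 rose, and Ephb1, an ephrin receptor (-0.38, adjusted p = 0.0302), and Srgap2, a Slit-Robo effector (-0.25, adjusted p = 0.0466), fell. Of 42 growth factor genes (7.14% called) the neurotrophin receptors Ntrk3 (-0.20, adjusted p = 0.0126) and Ntrk2 (-0.21, adjusted p = 0.0154) and the ligand Tgfa (-0.27, adjusted p = 0.0385) fell. Bdnf did not pass (adjusted p = 0.226). Snap25 missed the threshold without P21_2, P28_1 or P28_3, and Erc2, Ntrk3 and Ntrk2 without P28_1 (adjusted p 0.0502 to 0.0881). Cntnap5a, Cbln2, Ephb1, Ntn5 and Tgfa each missed it in 4 or 5 of the 6 such fits, and Srgap2 in all 6.

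No gene of the activity-regulated list passed out of 56 tested with edgeR, DESeq2 or limma-voom (8 at an unadjusted p under 0.05). The immediate early gene Fos averaged 9.68 ± 2.78 and 11.2 ± 2.08 CPM (adjusted p = 0.672, edgeR) and Npas4 6.32 ± 2.15 and 4.78 ± 1.17 CPM (adjusted p = 0.434), with overlapping libraries in both. Of 68 tested transcription factor genes of neurons 6 fell and none rose, beside 1.3% and 0.746% of all genes: Rfx3, Klf7 (-0.37, adjusted p = 0.0299), Prox1, Id3, Nfia (-0.24, adjusted p = 0.044) and Etv4 (-0.96, adjusted p = 0.0466). Their median change was -0.10. Of 47 chromatin regulators 8.51% were called, beside 2.05% of all genes. Dnmt3a, the de novo DNA methyltransferase, fell from 114 ± 6.69 to 90.6 ± 3.76 CPM (log2 change of -0.33 with an SE of 0.0543, adjusted p = 0.00669) and Tet1, which oxidizes methylated cytosine, from 18.3 ± 3.23 to 12.3 ± 1.03 CPM (-0.58, adjusted p = 0.0276). The methyltransferase Kmt2c fell (-0.24, adjusted p = 0.0431) and Ezh1, a Polycomb methyltransferase, rose (0.21, adjusted p = 0.0475). Dnmt3a lost its call only without P28_1 (adjusted p = 0.054), Tet1 in 5 of the 6 fits, all but the one without P21_2 (0.0545 to 0.115), and Kmt2c and Ezh1 in all 6. Among the transcription factors Rfx3 lost its call only without P28_1, Klf7 and Nfia in 4 of the 6 fits, Prox1 in 5, and Id3 and Etv4 in all 6.

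Ribosomal protein genes shifted upward as a group by a small amount. Of 77 tested genes of the cytosolic ribosome 76 had a positive estimate, with a median of 0.14, against 6891 of 13544 and 0.00 over all genes. The test passed for 3 of them (3.9%, beside 2.05% of all genes), among them Rpl3 (336 ± 10.4 to 389 ± 15.8 CPM, log2 change 0.21, adjusted p = 0.0177, edgeR) and Rps14 (97.2 ± 4.32 to 114 ± 6.69 CPM, 0.24, adjusted p = 0.0332). Rps14 also lost its call without P21_1 or P21_3. None passed without P28_1, 1 without P28_2 and 1 without the P21 libraries with Y-linked reads, and the median was 0.09 without P21_3 and 0.04 with the spectrin covariate. Mitochondrial ribosomal genes (59 of 78 positive, median 0.06), nuclear genes of the respiratory chain (62 of 76, 0.05) and proteasome genes (35 of 38, 0.05) leaned the same way. The first 2 lists had no call in edgeR, DESeq2 or limma-voom (12 and 11 genes at an unadjusted p under 0.05), and the third had 1, Psme1 (0.30, adjusted p = 0.0426), lost in each fit that left out 1 library. With the spectrin covariate 34 of the 76 respiratory chain genes were positive. Of 38 genes of glycolysis and the citrate cycle (5.26% called) Pfkl (0.20, adjusted p = 0.0139) and Pkm (0.16, adjusted p = 0.0299), both glycolytic, rose. Pfkl lost its call only without P28_1 (adjusted p = 0.0825) and Pkm without each library but P21_3 (0.0704 to 0.0982). Cholesterol synthesis genes had no call in 28 with any of the 3 tools (3 at an unadjusted p under 0.05), and 14 of them were positive. Ribosomal protein genes have many processed pseudogenes, so their counts are uncertain.

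**Figure D3:**
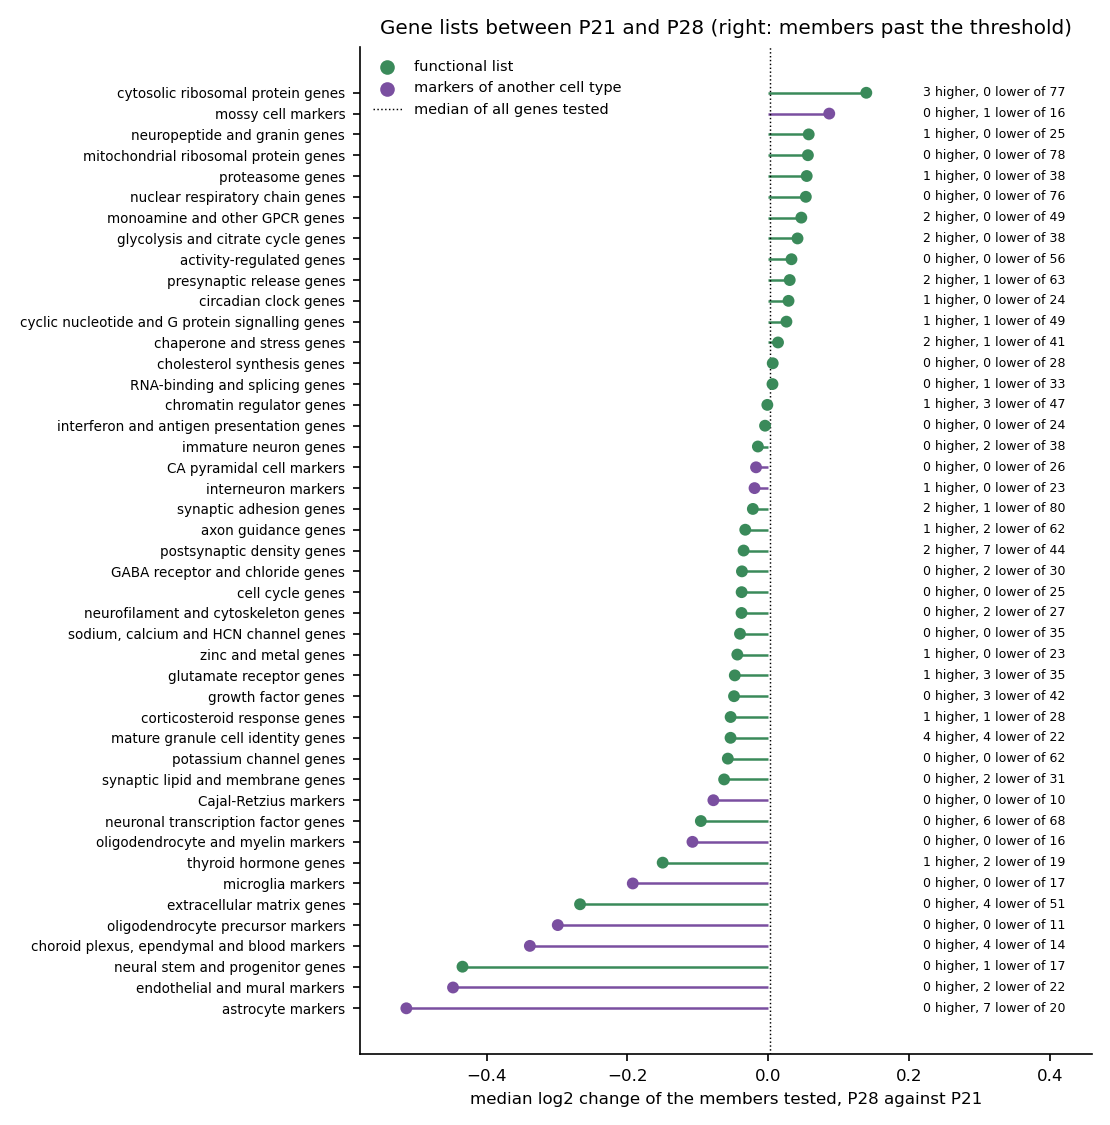
Median fitted log2 change from P21 to P28 of the tested members of each gene list (x axis), with the number of members past an adjusted p of 0.05 written at the right. Cytosolic ribosomal protein genes have the highest median (0.14) and astrocyte markers the lowest (-0.51), beside a median of 0.00 over all genes tested.

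The size of a gene's exons moved with its change. In 5 equal groups of genes by exonic length the median log2 change was 0.06, 0.03, 0.01, -0.02 and -0.05 from the shortest to the longest. Genes past the threshold numbered 33 higher and 14 lower in the shortest group and 11 higher and 92 lower in the longest. The median exonic length was 3407 bases for genes that rose, 8209.5 for genes that fell and 4549.5 for all. Cytosolic ribosomal protein genes had a median of 1781 bases and respiratory chain genes 1778.5. Extracellular matrix genes (7195 bases) and neuronal transcription factor genes (6886.5), like the postsynaptic density genes, lay on the long side, while the astrocyte markers (4176.5) lay near the middle. The part of exonic length in these list results was not tested.

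**Figure D4:**
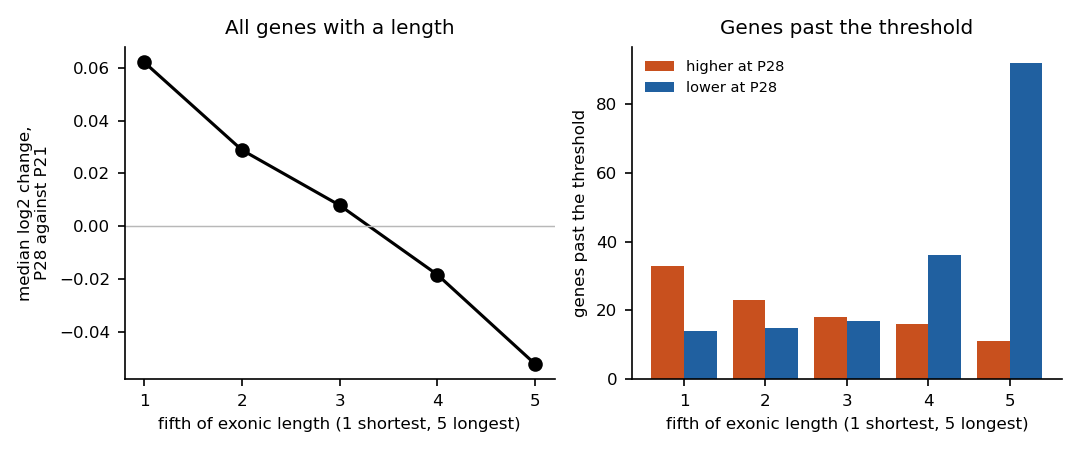
Median log2 change from P21 to P28 of all genes (left) and number of genes past the threshold in each direction (right) in 5 equal groups of exonic length. The median falls from 0.06 in the shortest to -0.05 in the longest group, and 92 of the genes that fell are in the longest group.

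Among astrocyte markers 7 of 20 fell, and among extracellular matrix genes 4 of 51, beside 1.3% of all genes tested. In bulk pull-downs fewer cells of a type, less RNA per cell and less carry-over from cells without the tag cannot be told apart. No library without the tag and none of unselected RNA was used here. Of the 20 astrocyte markers, all tested, 19 had a negative estimate, with a median of -0.51, and their summed level was 1851 to 2185 CPM at P21 and 1270 to 1549 CPM at P28 without overlap. Slc4a4, a sodium bicarbonate cotransporter, was at 231, 217 and 229 CPM at P21 and at 167, 147 and 162 CPM at P28 (log2 change of -0.51 with an SE of 0.0501, adjusted p = 0.000101, edgeR). The other 6 were the glutamate transporter Slc1a3 (93.8 ± 7.30 to 60.1 ± 9.04 CPM, -0.64), the water channel Aqp4 (24.2 to 29.4 CPM at P21 and 15.3 to 20.7 CPM at P28, -0.57), the gap junction gene Gja1 (-0.56), the acyl-CoA synthetase Acsbg1 (-0.54), the thyroid hormone transporter Slco1c1 (-0.67) and Mlc1 (-0.49), with adjusted p between 0.0153 and 0.0338. The list had 2 calls without P21_2, 2 without P28_1, 4 each without P21_1, P21_3 or P28_2, 5 without P28_3, 1 without the P21 libraries with Y-linked reads and 2 with the spectrin covariate. Its median stayed between -0.32 and -0.58 in these fits.

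Of 51 extracellular matrix genes 4 fell and none rose, and 40 had a negative estimate (median -0.27). Ptprz1, the receptor phosphatase that is also the chondroitin sulfate proteoglycan phosphacan, was at 84.7, 86.9 and 94.4 CPM at P21 and at 63.5, 56.4 and 61.9 CPM at P28 (log2 change of -0.55 with an SE of 0.0603, adjusted p = 0.00026, edgeR). Tnr, which encodes the perineuronal net protein tenascin-R, was at 279, 264 and 274 CPM at P21 and at 216, 200.1 and 225 CPM at P28 (-0.35 with an SE of 0.0468, adjusted p = 0.00121). Neither gene had an overlap between the ages, and P28_2 was the lowest library for both. Sparc, a matricellular glycoprotein, fell from 36.3 ± 2.73 to 24.0 ± 2.55 CPM (-0.60, adjusted p = 0.00239), and Col1a2 was the fourth. All 4 passed in each fit that left out 1 library, and the list had no call with the spectrin covariate. Ptprz1, Tnr and Sparc are also expressed by astrocytes and oligodendrocyte precursors, and the part of the astrocyte marker level in these results was not tested.

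Markers of other cells were present at both ages, and no marker of these lists that was in the table was at 0 in all 6 libraries. All 11 oligodendrocyte precursor markers had a negative estimate, with a summed level of 73.4 to 87.7 CPM at P21 and 51.2 to 70.7 CPM at P28, without overlap, and no call with edgeR, DESeq2 or limma-voom (3 at an unadjusted p under 0.05). Of 17 tested genes of neural stem and progenitor cells 14 were negative (median -0.43), and Nes, the intermediate filament nestin, fell (3.81 ± 0.624 to 1.92 ± 0.298 CPM, adjusted p = 0.0334, edgeR), a call lost in each fit that left out 1 library (0.0511 to 0.126). Microglia markers (17 tested, summed level 67.1 to 78.1 and then 49.0 to 66.1 CPM) and oligodendrocyte and myelin markers (16 tested, 924 to 1080 and then 773 to 952 CPM) had no call with these tools (5 and 2 at an unadjusted p under 0.05). Endothelial and mural markers had 2 calls of 22 tested (9.09%, beside 2.05% of all genes), Col1a2 and Slco1a4, and a median change of -0.45. Their summed levels overlapped, with 430 to 514 CPM at P21 and 467 to 520.1 CPM at P28. All 4 tested hemoglobin genes fell, Hbb-bt included, from a sum of 15.3 to 33.5 CPM to a sum of 5.71 to 7.58 CPM.

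Markers of neighbouring neurons gave 2 calls (4.35% of interneuron and 6.25% of mossy cell markers tested, beside 2.05% of all genes). Interneuron markers had 1 call of 23 tested, Cck, which is also a peptide of basket cells, and their summed level was 575 to 629 CPM at P21 and 632 to 667 CPM at P28, without overlap and with Cck (147 to 171 and then 205 to 220.4 CPM) in the sum. Gad1 averaged 200 ± 11.9 and 197 ± 4.46 CPM (adjusted p = 0.872, edgeR). Markers of CA pyramidal cells (26 tested, 823 to 1046 and then 860 to 1059 CPM) and of Cajal-Retzius cells (10 tested, 88.1 to 98.4 and then 100.8 to 136 CPM, the latter without overlap) had no call in edgeR (4 and 2 at an unadjusted p under 0.05, 0 and 1 in DESeq2, 0 in limma-voom), and those of mossy cells had 1 of 16, Tafa2, which fell (-0.21, adjusted p = 0.0247) and lost its call in 4 of the 6 fits that left out 1 library. The other 22 interneuron markers had no call, and the part of interneurons in the rise of Cck was not tested.

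The step from P21 to P28 was set beside the step from P10 to P15, which 6 libraries of batch 20210223 cover (3 per age, the same genotype), so that each change lies within its own batch and the 2 comparisons share no library. From P10 to P15, 204 of 13696 genes (1.49%) passed the threshold, 96 higher (0.701%) and 108 lower (0.789%) at P15. Their spread between replicates was larger, with a biological coefficient of variation of 8.85% against 6.65% for P21 and P28. The count of 204 was 1 without P15_2, 5 without P15_3, 14 without P10_1, 15 without P10_3 and 1651 without P10_2. Of all genes, 8 passed in both steps, 2.89% of the later and 3.92% of the earlier list. Cbx7, the scaffold gene Lzts3, Crebl2 and Dnaja4 rose and Nav1 fell in both. Slc8a3, a sodium and calcium exchanger, and Tagln3 fell from P10 to P15 and rose from P21 to P28, and Lratd2 went the other way. All of these 8 genes but Cbx7 are outside the naming rule.

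The difference between the changes of the 2 steps passed its own test (edgeR) in 383 of 14105 genes (2.72%), with 165 more positive and 218 more negative in the later step. Of the 277 genes called between P21 and P28, 89 were among them, 24 that rose and 65 that fell. The 277 were called on the later change, which is a term of the difference, so this share is not independent of that choice. The same holds for the genes named next. Cck had an estimate of -0.34 from P10 to P15 (adjusted p = 0.236) and rose by 0.46 from P21 to P28, a difference of 0.80 (adjusted p = 0.0364). Glp2r had an estimate of 0.40 from P10 to P15 (adjusted p = 0.0814) and then fell, a difference of -1.15 (adjusted p = 0.000876). Pdzd2 (difference -0.78, adjusted p = 1.63e-05), Slc4a4 (-0.79, adjusted p = 0.00115), Sphkap (-0.63, adjusted p = 0.00173), Adcy1 (-0.41, adjusted p = 0.00467) and Tnr (-0.50, adjusted p = 0.00467) also had a more negative later step. For Stra6 (0.60, adjusted p = 0.07), Plk5 (0.34, adjusted p = 0.206) and Dlg2 (-0.13, adjusted p = 0.283) the difference missed the threshold. The count of 383 moved between 53 without P15_2 and 1459 without P10_2.

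**Figure D5:**
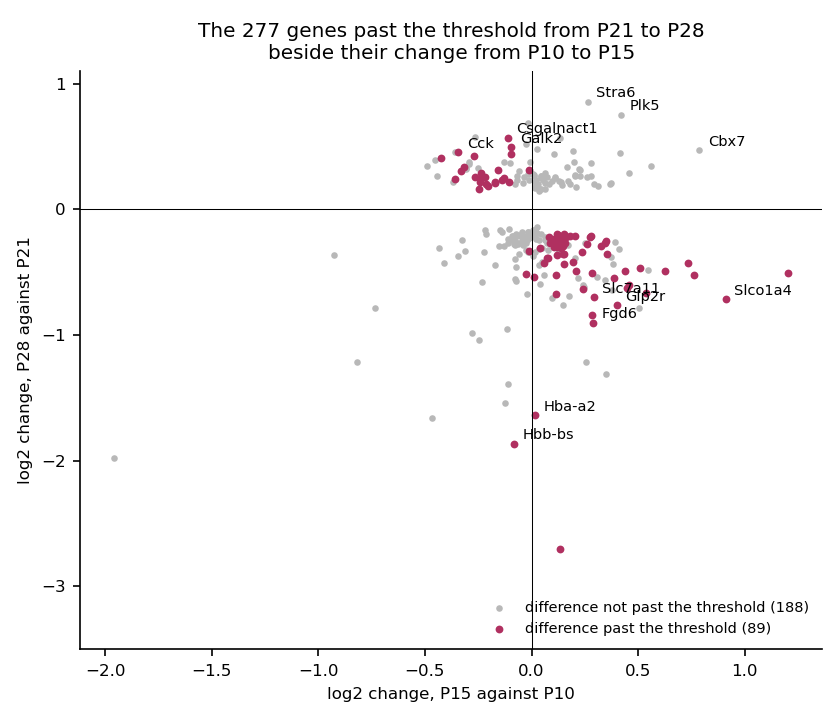
Fitted log2 change from P21 to P28 (y axis) against that from P10 to P15 (x axis) for the 277 genes past the threshold in the later step, in red where the difference of the changes passed an adjusted p of 0.05 (89 genes) and grey otherwise (188 genes). Red genes lie mainly at the upper left, such as Cck, and at the lower right, such as Glp2r and Slco1a4.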

How the data were processed

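Raw gene counts were used as deposited by the authors, 1 column per library in a single table, for 6 libraries of P21 and P28 and 6 of P10 and P15. Reads had been processed with STAR 2.7.5b, SAMtools 1.10 and featureCounts on mm10, per the submitters' processing notes, and the sources used here do not give the annotation, strand setting or handling of multiply mapped reads. Of 32245 symbols, 31424 were placed with GENCODE vM21 (mm10) and 396 by RefSeq, and 29991 were autosomal. Library pairs of an age gave a chi-square of 4.65 to 9.13 per degree of freedom, more than sampling noise, so each was treated as 1 sample. This spread may be technical and does not show that the libraries come from separate animals.

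The autosomal counts went into edgeR 4.0.16 (R 4.3.3; default filter on low counts, trimmed-mean factors, robust quasi-likelihood fit on the 6 columns alone, Benjamini-Hochberg threshold 0.05, 4 residual degrees of freedom); the difference of the changes was fitted on 12 columns. CPM are scaled by library total times its trimmed-mean factor and are not comparable between genes. SE was obtained as change over the root of F. The genes named are the 14 with the highest and 14 with the lowest fold change among called protein-coding genes with at least 5 CPM in 1 age and no overlap, up to 4 called members per list by smallest p (all where at most 6), and a panel; others, among them further members of a list, were chosen after their values were seen. The members and lists were chosen with earlier results of these data known. The test was checked on simulated counts. Alternatives used limma 3.58.1 and DESeq2 1.42.0, other scalings and filters, a replicate block, all 20 libraries, and each library left out; the fits without the libraries with Y-linked reads and with the spectrin level were added after seeing the data. A few genes are counted in their lists but are not reported here by name.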

Additional observations from a re-analysis of the deposited data

Results flagged for a closer look

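For 9 of the 28 genes with the highest and lowest fold changes from P21 to P28, the change differed from the change from P10 to P15 in a test of the difference itself (edgeR, adjusted p under 0.05, 12 libraries). The later change was the more positive by 0.80 on the log2 scale for Cck, by 0.69 for Csgalnact1 and by 0.59 for Galk2. The difference was -1.78 for Hbb-bs and -1.65 for Hba-a2. It was -1.62 for Slco1a4, -1.19 for Fgd6, -1.15 for Glp2r and -0.99 for Slc7a11. The test covers 14105 genes, of which 2.72% passed. The 28 genes were chosen by their change from P21 to P28, which is a term of the difference. Their share of calls is therefore not independent of that choice and cannot be set against the share of all genes. The steps belong to different batches, so step and batch cannot be told apart.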

How the results depend on the processing

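All 277 genes called between P21 and P28 kept their direction in every setting that fitted them. The count was 768 without the filter on low counts, 42 in a fit on all 20 libraries, 170 without the P21 libraries with Y-linked reads and 11 with the spectrin covariate, and 44 to 220 when 1 library was left out. DESeq2 size factors, total counts, a stricter filter, DESeq2, limma-voom and the use of all genes of the table gave 269 to 373. From P10 to P15 the count of 204 became 870 without the filter, 602 with DESeq2, 671 in the fit on all 20 libraries and 1 to 1651 with 1 library left out. The difference of the changes gave 383 genes, 609 without the filter, 702 with DESeq2 and 53 to 1459 with 1 library left out. The causes of these shifts were not tested. With the replicate number as a replicate block the 3 counts were 457, 106 and 239. Deviations of same-numbered P21 and P28 libraries correlated at 0.0976, 0.214 and 0.0355, and those of other pairs at -0.172 to 0.0727. P21_1 and P21_2 correlated best with the P28 library of their own number, and P21_3 with P28_1 (0.0727). The labels do not say that a number pairs libraries, so the main fit has no block. Whether the numbers pair libraries was not tested and cannot be told from these values. Of the 91 named genes past the threshold, 18 stayed past it in all 6 fits that left out 1 library and 11 in none. With 3 libraries per age, levels under 0.160 to 0.183 CPM cannot be told from 0.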

Other observations

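The largest positive estimate among all genes tested belonged to a gene that did not pass the threshold and was chosen after its values were seen. Trh, which encodes thyrotropin-releasing hormone, was at 0.00, 6.73 and 0.480 CPM in P21_1 to P21_3 and at 0.0560, 76.8 and 1.36 CPM in P28_1 to P28_3 (log2 change 3.42, SE 2.39, adjusted p = 0.552, edgeR). The level in P28_2 stood far above that of the other 5 libraries, and P21_2 was the next. Smoc1, a matricellular protein, had the same pair of libraries highest, with 2.32, 6.94 and 3.20 CPM at P21 and 1.57, 28.3 and 2.43 CPM at P28 (log2 change 1.38, adjusted p = 0.684). P28_2 is also the library that stands apart on the first principal component.

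Genes of hormone and stress response gave single calls in both directions. Calls made up 15.8% of thyroid hormone, 7.32% of chaperone and stress, 4.17% of clock and 7.14% of corticosteroid genes. The share was 2.05% over all genes. Of 19 tested genes of thyroid hormone signalling, the transporter Slco1c1 and Dio2, the deiodinase that activates the hormone (-0.62, adjusted p = 0.0313, edgeR), fell, both also genes of astrocytes, and Rasd2, a small GTPase, rose (0.27, adjusted p = 0.0316). Atf4, the transcription factor of the integrated stress response, rose (85.1 ± 2.97 to 99.4 ± 3.88 CPM, 0.22, adjusted p = 0.0338), as did its target Asns (0.20, adjusted p = 0.031), whereas Calr, an endoplasmic reticulum chaperone, fell (-0.20, adjusted p = 0.0269), which made 3 calls in 41 chaperone and stress genes. Bhlhe40 rose as the 1 call among 24 clock genes (0.37, adjusted p = 0.038), and of 28 corticosteroid response genes Nfkbia rose and Tsc22d4 fell (-0.48, adjusted p = 0.044), while Fkbp5 did not pass (adjusted p = 0.698). Each of these calls was lost in at least 4 of the 6 fits that left out 1 library.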
